A study of Mus musculus with 7 samples.

Results

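The 10 genes described here encode the insulin receptor (Insr), the related IGF-1 receptor (Igf1r), the receptor substrates Irs1 and Irs2, the PI3K regulatory subunit Pik3r1, the kinases Akt1 and Akt2, the transcription factors Foxo1 and Foxo3, and the phosphatase Ptpn1. They were chosen by gene symbol as the core of insulin receptor signalling, with earlier results of these data known, and joined over the libraries by Ensembl identifier. They are 10 of 51426 genes listed in liver mRNA of 7 male mice, and all 10 passed the filter on low counts with 14754 genes in total.

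The samples were livers of 3 WT mice and 4 TET1 KO mice, all labelled as strain C57BL/6J. The TET1 KO mice lacked TET1, a DNA dioxygenase that oxidises methylated cytosine, in the whole body. All 7 mice had received a high-fat diet (HFD) from the age of 8 weeks, for 16 weeks, so no chow-fed liver entered any comparison. The labels name only a whole-body knockout, and the study's own account of the sequenced livers points to its constitutive Tet1 allele, from a B6;129S4 line with littermate controls, and not to its deletion by beta-actin Cre. The loss of TET1 was therefore not limited to hepatocytes, and whole liver was sequenced. The study took serum from unfasted mice at the end of the diet, and the labels give neither fasting nor insulin treatment for the livers.

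When insulin binds its receptor, the receptor phosphorylates IRS proteins, which recruit PI3K. The lipid made by PI3K activates AKT, and AKT phosphorylates FOXO factors, which then leave the nucleus. In the liver this lowers transcription of gluconeogenic genes and of Irs2, itself a FOXO target, while lipogenic genes rise through SREBP-1c. Hepatocytes of adult mice carry much insulin receptor and little IGF-1 receptor, and use both IRS1 and IRS2.

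Library sizes lay between 15005277 and 22746138 counts. Tet1 had 1 to 4 counts in every library of both genotypes, so its mRNA did not check the labels and no fold change is given (exact two-sided permutation test, p = 1). The first principal component held 48.7% of the variance and put TET1 KO replicate 4 at 1.60, closest to WT, with the other TET1 KO livers between 20.6 and 57.1 and the WT livers between -56.9 and -19.4. The summed CPM of 8 hepatocyte markers, albumin among them, was between 66470 and 88720 in all livers. Over all tested genes, edgeR's quasi-likelihood test called 129 higher and 169 lower in TET1 KO at a Benjamini-Hochberg adjusted p under 0.05. With library size as the only scaling these counts were 107 and 312. Without WT replicate 2 they were 16 and 22, and without TET1 KO replicate 4 they were 427 and 464.

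Among the 10 genes, Irs2 was higher in TET1 KO livers, with about double the WT level, while its paralogue Irs1 had the same mean level in both genotypes. Igf1r was about as much higher as Irs2 but just missed the threshold, and Pik3r1 was lower without passing it. The other 6 genes, Insr, Akt1, Akt2, Foxo1, Foxo3 and Ptpn1, overlapped between the genotypes. Thus 1 of 10 genes was called, against 2.02% of all tested genes. That gene was higher, against 0.874% of all tested genes, and 0 of the 10 were called lower, against 1.15%. At an unadjusted p under 0.05, 3 of the 10 were found, against 26.3% of all tested genes, with 2 higher and 1 lower, against 13.6% and 12.7%. DESeq2 called the same 3 genes, Irs2 and Igf1r as higher and Pik3r1 as lower, against 8.74% of the genes it tested, 4.16% higher and 4.58% lower. The median log2 fold change of the 10 genes was 0.13, beside 0.01 over all tested genes.

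**Figure D1:**
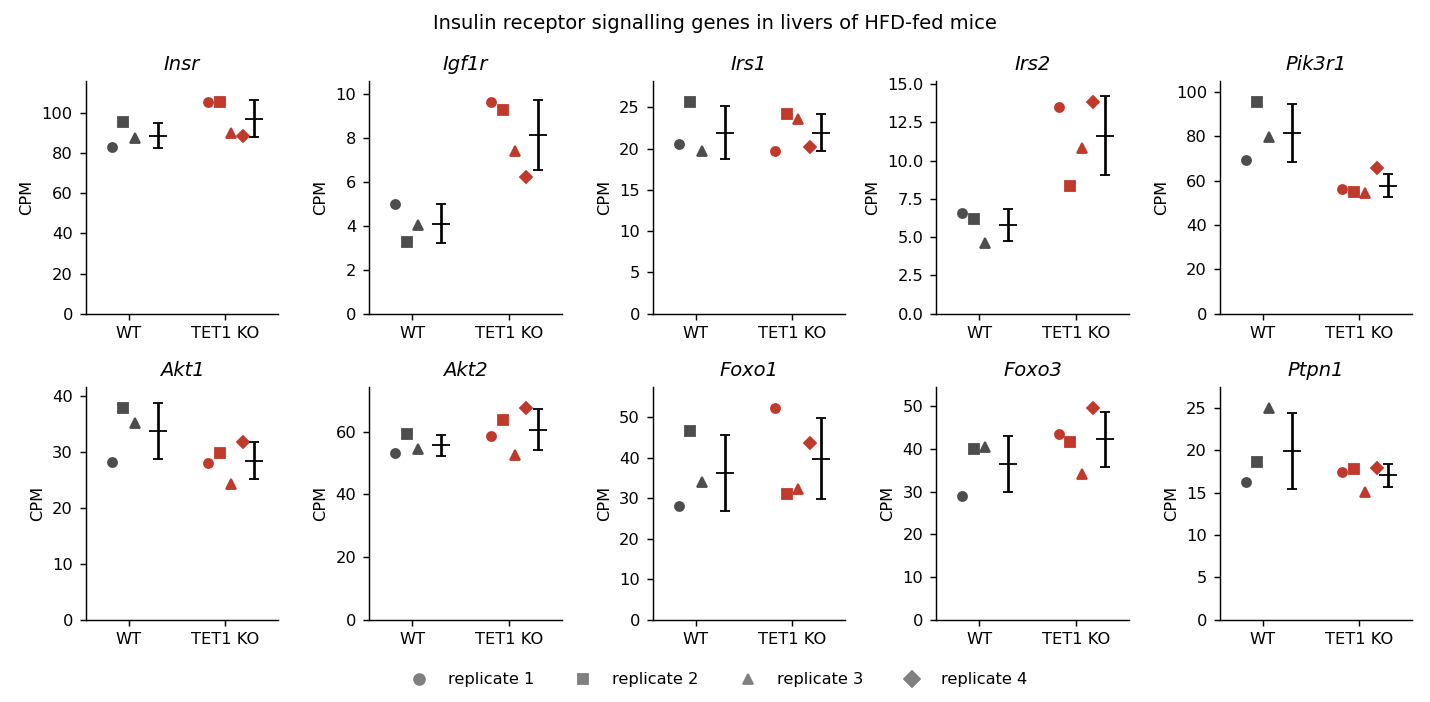
TMM-normalized counts (CPM, scaled to library size) of the 10 genes in each liver, with WT in grey, TET1 KO in red and the symbol giving the replicate number; the bar beside the points is the mean ± SD of 3 WT or 4 TET1 KO livers, and each axis starts at 0. Igf1r and Irs2 were higher and Pik3r1 was lower in all 4 TET1 KO livers than in any WT liver, and the other 7 genes overlapped.

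Of the receptors, neither passed the test in edgeR. Insr (ENSMUSG00000005534, chromosome 8 of GRCm38.p6, 3150922 to 3279649) encodes the receptor itself and was measured at 83.4, 95.6 and 87.6 CPM in WT replicates 1 to 3. In TET1 KO replicates 1 to 4 it was at 105.4, 105.5, 90.0 and 88.5 CPM. TET1 KO replicates 1 and 2 were above every WT liver, the other TET1 KO livers were inside the WT range, and the groups overlapped. On the log2 scale the fold change, TET1 KO over WT, was 0.13 with a standard error (SE) of 0.13 (edgeR's quasi-likelihood test, adjusted p = 0.522). Insr rested on 1497 to 2306 counts a liver.

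Igf1r (ENSMUSG00000005533, chromosome 7, 67952257 to 68233668) encodes the receptor that binds IGF-1 with high affinity and signals through the same substrates. Its WT values were 5.02, 3.28 and 4.03 CPM. Its TET1 KO values were 9.64, 9.30, 7.42 and 6.22 CPM. Every TET1 KO liver was above every WT liver, and TET1 KO replicate 4 was the lowest of its group. The mean was 4.11 ± 0.875 CPM in WT (SD, n = 3) and 8.14 ± 1.62 CPM in TET1 KO (SD, n = 4). Its log2 fold change was 0.98 with an SE of 0.22, and edgeR's adjusted p of 0.0502 lay just above the threshold. DESeq2 gave an adjusted p of 0.00618. Igf1r also passed in edgeR without a filter on low counts (adjusted p = 0.0332) and with robust dispersions (adjusted p = 0.0458). Igf1r rested on 73 to 154 counts a liver, the fewest of the 10 genes. Without TET1 KO replicate 4 edgeR's adjusted p was 0.0279, and without WT replicate 2 it was 0.240.

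Irs1 and Irs2 are the main docking proteins between the insulin receptor and PI3K in liver. Irs1 (ENSMUSG00000055980, chromosome 1, 82233105 to 82291439) was at 20.6, 25.6 and 19.6 CPM in the WT livers. In the TET1 KO livers it was at 19.7, 24.2, 23.6 and 20.2 CPM. All 4 TET1 KO values lay inside the WT range. For Irs1 the log2 fold change was -0.0019 with an SE of 0.15 (edgeR, adjusted p = 0.995), and its sign turned when single livers were left out.

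Irs2 (ENSMUSG00000038894, chromosome 8, 10984681 to 11008929) was at 6.60, 6.18 and 4.64 CPM in WT. In TET1 KO it was at 13.5, 8.31, 10.8 and 13.8 CPM. All 4 TET1 KO livers were above all WT livers, with replicates 1 and 4 the highest and replicate 2 the lowest. Mean Irs2 was 5.80 ± 1.03 CPM in WT (SD, n = 3) and 11.6 ± 2.58 CPM in TET1 KO (SD, n = 4), a 2.00-fold difference. The log2 fold change was 1.00 with an SE of 0.22 (edgeR, adjusted p = 0.0436), on 84 to 298 counts a liver. The call was close to the threshold. It was lost with library size as the only scaling (adjusted p = 0.0578) and without any 1 of WT replicates 1, 2 and 3 and TET1 KO replicates 1 and 3, where edgeR's adjusted p was 0.0548, 0.176, 0.110, 0.0781 and 0.103, in that order. The log2 fold change stayed between 0.85 and 1.12 when single livers were left out.

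Bile duct markers are given here because their summed level separated the groups as Irs2 and Igf1r did. Of 6 cholangiocyte markers, 5 were tested and all 5 had a positive log2 fold change, with a median of 1.22. Of these 5 markers edgeR called 0, against 2.02% of all tested genes, with 4 at an unadjusted p under 0.05, against 26.3%. DESeq2 called 2 of these 5 markers, against 8.74% of the genes it tested. Their summed level was 29.7 to 37.9 CPM in WT and 46.2 to 68.0 CPM in TET1 KO, without overlap, and the untested Cftr was at or near 0 in every liver. Most of this sum came from Spp1, at 19.8 to 29.1 CPM in WT and 30.7 to 43.7 CPM in TET1 KO, and from Sox9. Krt19 and Krt7 overlapped between the genotypes, while Sox9, Spp1 and Epcam did not. The markers did not share 1 high liver, since Krt19, Krt7 and Epcam were highest in TET1 KO replicate 4, while Sox9, Spp1 and the summed level were highest in TET1 KO replicate 2. The summed levels of the Kupffer cell and macrophage, endothelial, stellate and fibroblast, T and NK cell, B cell, neutrophil and adipocyte lists overlapped between the genotypes. Tested markers numbered 8 in each of the hepatocyte, macrophage, endothelial and stellate lists. They numbered 5 each for cholangiocytes and B cells, 4 for T and NK cells, 3 for neutrophils and 1 for adipocytes. Over all 9 marker lists edgeR called 0 genes, against 2.02% of all tested genes. At an unadjusted p under 0.05, 7 were higher and 6 lower, against 13.6% and 12.7%. DESeq2 called 4 higher and 5 lower, against 4.16% and 4.58%, the collagens Col1a1, Col1a2 and Col3a1 among the lower. The part of any of these cell types in Irs2, Igf1r or Pik3r1 was not tested. In whole liver, fewer cells of a type and less RNA per cell cannot be told apart.

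**Figure D2:**
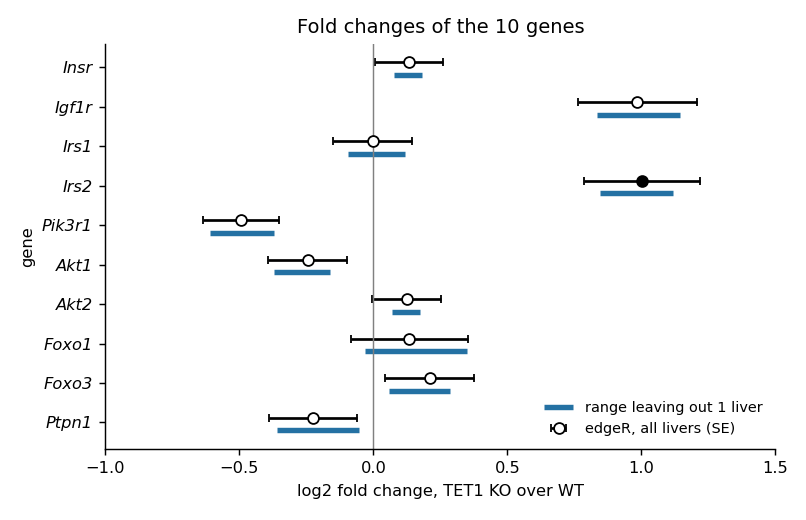
Log2 fold change of each gene, TET1 KO over WT, from edgeR's quasi-likelihood test on 3 WT and 4 TET1 KO livers; circles are estimates with SE bars, the filled circle marks an adjusted p under 0.05, and blue bars span the estimates when 1 liver was left out. Irs2 and Igf1r lie near 1, Pik3r1 lies near -0.50, and the blue bars of Irs1 and Foxo1 cross 0.

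The contrast between Irs1 and Irs2 was also read within each liver, where it does not depend on how libraries are scaled. For 1 read on Irs2, WT replicates 1 to 3 had 3.12, 4.15 and 4.24 reads on Irs1. TET1 KO replicates 1 to 4 had 1.46, 2.91, 2.18 and 1.46. The ratio was lower in each TET1 KO liver than in any WT liver, although TET1 KO replicate 2 was close to WT replicate 1. The mean log2 ratio was 1.92 ± 0.246 in WT (SD, n = 3) and 0.94 ± 0.482 in TET1 KO (SD, n = 4). The difference of -0.98 had p = 0.0571 in an exact two-sided permutation test over 35 splits of the livers, and 0.0762 after Benjamini-Hochberg adjustment over 4 paralogue pairs. It did not pass the threshold of 0.05, and the smallest p these 7 livers allow is 0.0286.

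The windows upstream of both genes are shown because the Irs1 and Irs2 promoters share the motifs marked below. Both genes were chosen with earlier results of these data known. Each is the 250 bases before the RefSeq gene start, 5′ to 3′ on the minus strand of GRCm38.p6, and capitals mark an E-box (CACGTG) and the sequence TGTTTTG, a form of the insulin response element to which FOXO factors can bind.
Irs1, chr1:82291440-82291689: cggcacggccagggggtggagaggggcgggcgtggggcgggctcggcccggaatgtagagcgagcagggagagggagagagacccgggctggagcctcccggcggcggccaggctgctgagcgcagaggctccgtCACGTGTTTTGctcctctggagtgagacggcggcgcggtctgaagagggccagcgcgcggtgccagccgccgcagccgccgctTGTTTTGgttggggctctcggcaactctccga
Irs2, chr8:11008930-11009179: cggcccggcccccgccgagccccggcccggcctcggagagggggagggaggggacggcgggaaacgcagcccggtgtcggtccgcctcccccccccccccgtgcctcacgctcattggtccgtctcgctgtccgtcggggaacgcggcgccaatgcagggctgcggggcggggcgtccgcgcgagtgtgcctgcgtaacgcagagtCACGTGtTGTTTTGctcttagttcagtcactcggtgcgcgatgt

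In the Irs1 window the E-box began 115 bases before the gene start and TGTTTTG began 111 and 32 bases before it, so that the E-box and the first TGTTTTG overlapped. In the Irs2 window the E-box began 44 and TGTTTTG 37 bases before the start, with 1 base between them. Searched on both strands, an E-box was found in 6.04% and TGTTTTG in 5.60% of 32536 mouse promoter windows of the same length, and both in 0.298%. Starts within 10 bases of each other occurred in 7 windows, or 0.0215%, a spacing chosen after these sequences had been read. Among the 14 windows of the 9 genes that had one, only those of Irs1 and Irs2 held either motif. Another FOXO site, TGTTTAC, was found in 3.17% of all windows, in 1 window of Akt1 and in neither Irs window. The Irs1 and Irs2 windows held 28 and 34 CpG dinucleotides, against a median of 6 over all windows, and Igf1r, Ptpn1, Akt1, Foxo3 and Pik3r1 also had a window with 30 to 42. A window with both motifs stood before Irs2, which was called, and before Irs1, which was not. Any part of either motif in the expression of these genes was not tested. Insr had no match among the windows.

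Pik3r1 (ENSMUSG00000041417, chromosome 13, 101680761 to 101768217) encodes p85alpha and its shorter forms, the regulatory subunits that hold the PI3K catalytic subunit at IRS proteins. It was at 69.3, 95.5 and 79.7 CPM in WT. It was at 56.2, 54.9, 54.4 and 65.8 CPM in TET1 KO. All TET1 KO livers were below all WT livers, with TET1 KO replicate 4 close to WT replicate 1. The mean was 81.5 ± 13.2 CPM in WT (SD, n = 3) and 57.8 ± 5.39 CPM in TET1 KO (SD, n = 4). Its log2 fold change was -0.50 with an SE of 0.14, and edgeR's adjusted p was 0.0789, so Pik3r1 was not called. DESeq2 gave -0.52 with an adjusted p of 0.0289. Without WT replicate 2, the liver with the highest value, the log2 fold change was -0.37 and edgeR's adjusted p was 0.316. Of the 10 genes, 2 did not overlap in the higher and 1 in the lower direction, which compares with 11.7% and 10.8% of all tested genes.

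The kinases downstream of PI3K did not pass the test. Akt1 (ENSMUSG00000001729, chromosome 12, 112653821 to 112674884), the form found in most tissues, was at 28.2, 37.8 and 35.3 CPM in WT. It was at 28.0, 29.8, 24.2 and 31.9 CPM in TET1 KO. WT replicates 2 and 3 were above every TET1 KO liver, and WT replicate 1 lay within the TET1 KO range. For Akt1 edgeR estimated a log2 fold change of -0.25 and an SE of 0.15 (edgeR, adjusted p = 0.305).

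Akt2 (ENSMUSG00000004056, chromosome 7, 27591552 to 27640826), the form with the larger part in hepatic insulin action, was at 53.1, 59.3 and 54.5 CPM in WT. It was at 58.6, 63.8, 52.5 and 67.5 CPM in TET1 KO. The groups overlapped, with TET1 KO replicates 2 and 4 above the WT livers and replicate 3 below them. The log2 fold change was 0.12 with an SE of 0.13 (edgeR, adjusted p = 0.555).

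Although neither kinase passed the test on its own, their ratio spread little in TET1 KO. For 1 read on Akt2 there were 0.532, 0.638 and 0.647 reads on Akt1 in WT. In TET1 KO there were 0.478, 0.467, 0.462 and 0.472. All TET1 KO livers were below all WT livers and lay within a small range. The log2 ratio differed by -0.36, from -0.73 ± 0.158 in WT (SD, n = 3) to -1.09 ± 0.021 in TET1 KO (SD, n = 4). The exact two-sided permutation test gave p = 0.0286, the smallest p these livers allow, and 0.0571 after adjustment over the 4 pairs.

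The receptors gave a ratio of the same kind. For 1 read on Igf1r there were 16.6, 29.2 and 21.7 reads on Insr in WT. In TET1 KO there were 10.9, 11.3, 12.1 and 14.2. The groups did not overlap, and the WT livers were spread more widely. The log2 ratio differed by -0.85 (exact two-sided permutation test, p = 0.0286, adjusted over the 4 pairs 0.0571). None of the 4 ratios passed the threshold after adjustment, and with 2 pairs at the smallest p no lower adjusted p could be reached for them.

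**Figure D3:**
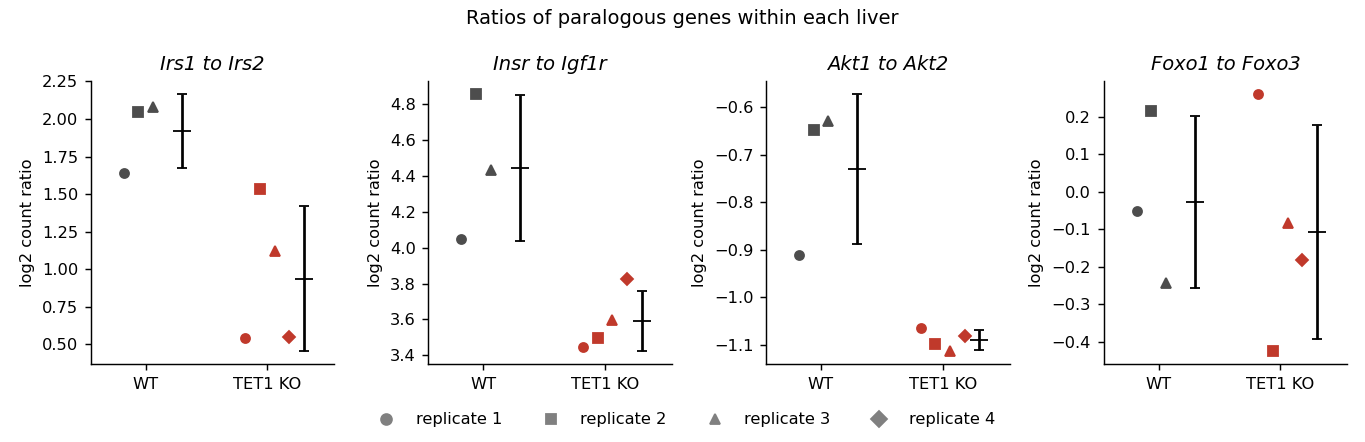
Log2 ratio of read counts of paralogous genes within each liver, with 0.5 added to each count; points are livers by replicate number, and the bar is the mean ± SD of 3 WT or 4 TET1 KO livers. The axes differ in range and do not start at 0. The groups do not overlap for Irs1 to Irs2, Insr to Igf1r and Akt1 to Akt2, and overlap for Foxo1 to Foxo3.

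The FOXO factors raise gluconeogenic genes when insulin is low. Foxo1 (ENSMUSG00000044167, chromosome 3, 52268337 to 52350109), the main hepatic form, was at 28.0, 46.5 and 34.1 CPM in WT. It was at 52.2, 31.0, 32.2 and 43.6 CPM in TET1 KO. TET1 KO replicate 1 was the highest and WT replicate 1 the lowest of the 7 livers, and the groups overlapped widely. The log2 fold change was 0.13 with an SE of 0.22 (edgeR, adjusted p = 0.717), and it ranged from -0.033 to 0.35 when single livers were left out.

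Foxo3 (ENSMUSG00000048756, chromosome 10, 42181845 to 42276695) was at 29.0, 40.0 and 40.4 CPM in WT. It was at 43.5, 41.6, 34.1 and 49.5 CPM in TET1 KO. TET1 KO replicate 3 lay inside the WT range and the other 3 above it. For Foxo3 the log2 fold change was 0.21 with an SE of 0.17 (edgeR, adjusted p = 0.436). Foxo3 shares chromosome 10 with the targeted gene Tet1 and lies 20.5 Mb from it. The log2 ratio of Foxo1 to Foxo3 differed by -0.08 (exact two-sided permutation test, p = 0.743).

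Ptpn1 (ENSMUSG00000027540, chromosome 2, 167930750 to 167979385) encodes PTP1B, which removes phosphate from the insulin receptor and so limits its signal. It was at 16.3, 18.6 and 24.9 CPM in WT. It was at 17.5, 17.8, 15.04 and 17.9 CPM in TET1 KO. WT replicate 3 stood above the other livers, and the groups overlapped. The log2 fold change was -0.23 with an SE of 0.17 (edgeR, adjusted p = 0.396).

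Levels of different genes were compared per kilobase of exon (RPKM, CPM divided by exon length). In WT livers the means ran from Pik3r1 at 11.02 RPKM over Insr at 9.19, Akt1 at 8.24, Akt2 at 7.80, Foxo1 at 6.52, Foxo3 at 5.06 and Ptpn1 at 3.61 to Irs1 at 2.40, Irs2 at 1.44 and Igf1r at 0.918. Each neighbour from Pik3r1 to Ptpn1 overlapped the next over the 3 WT livers, whereas Ptpn1, Irs1, Irs2 and Igf1r were separate from each other with these lengths. In TET1 KO livers Insr stood first at 10.1 RPKM, Akt2 followed at 8.50 and Pik3r1 was at 7.82, with overlapping ranges, and Igf1r was again last at 1.82. The substrates thus lay well below the receptor and the kinases in both genotypes.

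The order of Irs1 and Irs2 in TET1 KO could not be settled. With the exon lengths used, Irs2 was at 2.89 RPKM and Irs1 at 2.40 RPKM, with overlapping ranges. The lengths came from an older annotation than the one used for counting, in which Irs2, Igf1r and Ptpn1 are shorter than their RefSeq genes. With exon length extended to the RefSeq gene ends, Irs2 was at 1.71 RPKM in TET1 KO and 0.854 in WT, below Irs1 in both, and Igf1r was at 0.672 and 0.339 RPKM. Ptpn1 was then at 2.38 to 3.65 RPKM over the WT livers and overlapped Irs1, at 2.14 to 2.80 RPKM. With the longest transcript in place of all exons, Insr, Pik3r1, Akt1 and Akt2 changed rank in WT, and these 4 and Foxo1 in TET1 KO. Differences between genotypes for 1 gene do not depend on its length.

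The other genes of the pathway were read from lists. Of 96 distinct genes in 8 lists from receptors to target genes, 90 were tested, and Irs2 was the only one called by edgeR, against 2.02% of all tested genes. At an unadjusted p under 0.05, 9 were higher and 13 lower, against 13.6% and 12.7% of all tested genes. DESeq2 called 4 higher (Irs2, Igf1r, Apoc3 and Mlxipl) and 4 lower (Pik3r1, Igf2r and Pik3c2a among them), against 4.16% and 4.58% of the genes it tested. As many of the 90 genes had a positive as a negative log2 fold change, 45 each, and their median was 0.02 beside 0.01 over all tested genes. The genotypes did not overlap for 8 of the 90 genes in the higher and 8 in the lower direction, against 11.7% and 10.8% of all tested genes. The values given next are log2 fold changes with edgeR's adjusted p, and none of these genes passed.

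In the receptor list, 3 of 4 genes were tested. Igf2r, which clears IGF-2 and carries lysosomal enzymes, was at 26.6 to 34.99 CPM in WT and 20.7 to 24.5 CPM in TET1 KO, without overlap. Its log2 fold change was -0.45 (edgeR, adjusted p = 0.0874), opposite in sign to that of Igf1r. Among 12 tested substrates and adaptors, 1 was called higher and 0 lower, against 0.874% and 1.15% of all tested genes. At an unadjusted p under 0.05, 1 was higher and 3 lower, against 13.6% and 12.7%, and DESeq2 called 1 higher and 1 lower, against 4.16% and 4.58%. The adaptor Crk was lower in all TET1 KO livers than in any WT liver, at 41.1 to 44.1 against 48.8 to 63.7 CPM (edgeR, adjusted p = 0.103).

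Of 11 tested genes for PI3K and phosphoinositide phosphatases, edgeR called 0, against 2.02% of all tested genes. At an unadjusted p under 0.05, 1 was higher and 4 lower, where all tested genes gave 13.6% and 12.7%. DESeq2 called 0 higher and 2 lower, Pik3r1 and Pik3c2a, against 4.16% and 4.58% of the genes it tested. The summed level of the list was 320.7 to 384.8 CPM in WT and 299.9 to 313.8 CPM in TET1 KO, without overlap, and Pik3r1 is part of this sum. Pik3c2a, a class II PI3K, was at 24.2 to 33.4 CPM in WT and 19.5 to 21.5 CPM in TET1 KO, with a log2 fold change of -0.49 (edgeR, adjusted p = 0.0794). Inpp4a, a phosphoinositide 4-phosphatase, was higher in each TET1 KO liver than in any WT liver, at 23.5 to 34.3 against 16.7 to 23.2 CPM, with a log2 fold change of 0.53 (edgeR, adjusted p = 0.0953).

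Among the 19 genes for AKT, its activators and the mTOR complexes, edgeR and DESeq2 called 0, against 2.02% and 8.74% of the genes each tested. At an unadjusted p under 0.05 in edgeR, 1 was higher and 1 lower, against 13.6% and 12.7%. Mtor, the kinase of both complexes, was at -0.47 (edgeR, adjusted p = 0.108) and was at 23.5 to 30.5 CPM in TET1 KO, just below the 30.6 to 45.5 CPM of WT. Rps6kb2, which encodes a ribosomal S6 kinase, was at 0.54 (edgeR, adjusted p = 0.137), and Tsc1, an inhibitor of mTORC1, at 0.41 (adjusted p = 0.221). Both overlapped between the genotypes.

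Of 16 tested brakes on the receptor and on AKT, edgeR and DESeq2 called 0, against 2.02% and 8.74% of the genes each tested. At an unadjusted p under 0.05 in edgeR, 0 were higher and 2 lower, against 13.6% and 12.7%. Those were Ptpra, a receptor-type phosphatase, at -0.40 (edgeR, adjusted p = 0.159), and Ceacam1, which promotes insulin clearance in liver, at -0.35 (edgeR, adjusted p = 0.174). Socs3, an inhibitor induced by cytokines, had the largest positive log2 fold change of the list, 1.12 with an SE of 0.53 (edgeR, adjusted p = 0.204). Its value rested on TET1 KO replicate 1 at 37.1 CPM, while the other TET1 KO livers were at 7.72 to 11.8 and the WT livers at 4.77 to 12.1 CPM.

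**Figure D4:**
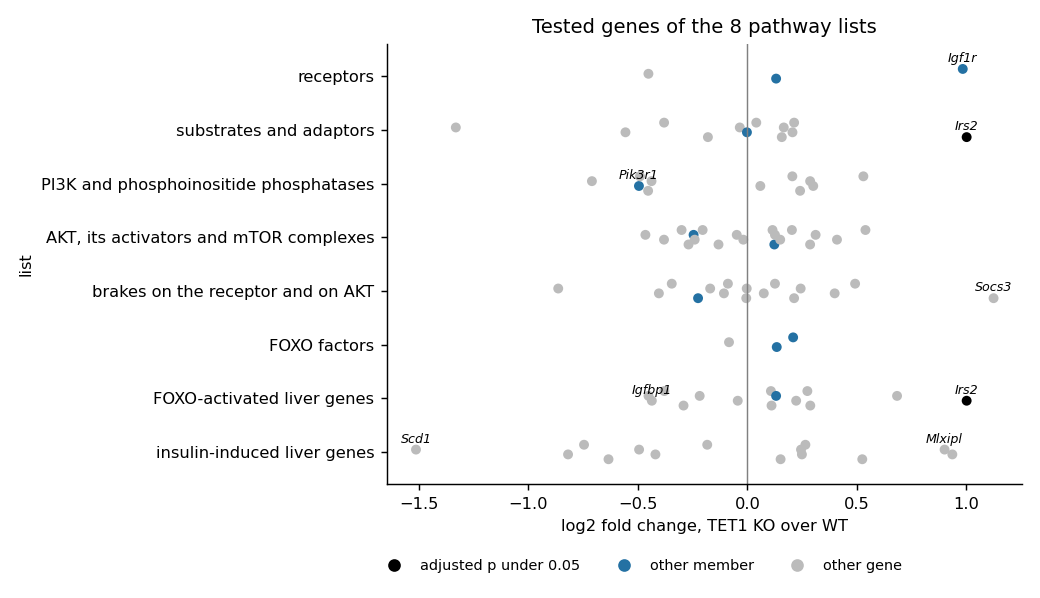
Log2 fold change, TET1 KO over WT, of each tested gene in 8 lists of pathway genes; black marks an adjusted p under 0.05 (edgeR, 3 WT and 4 TET1 KO livers), blue the other genes among the 10, and grey the remaining genes, and the vertical offset within a list has no meaning. Irs2, which stands in a pair of lists, was the only gene called, and the lists spread to both sides of 0.

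Most target genes of the pathway did not pass the test. FOXO factors had 3 tested members and 0 calls, against 2.02% of all tested genes, with Foxo4 at a log2 fold change of -0.08 (edgeR, adjusted p = 0.718). Of 14 FOXO-activated liver genes, 1 was called higher, which was again Irs2, and 0 lower, against 0.874% and 1.15% of all tested genes. Of the 14, 8 had a positive and 6 a negative log2 fold change. At an unadjusted p under 0.05, 3 were higher and 1 lower, beside 13.6% and 12.7% of all tested genes, and DESeq2 called 2 higher, Irs2 and Apoc3, beside 4.16%. The summed level of the list was 3720 to 4135 CPM in WT and 4137 to 6581 CPM in TET1 KO, and most of it came from Apoc3 and Pck1. The groups were only just apart, and with library size as the only scaling they overlapped, at 3758 to 4385 and 3914 to 6445 CPM. G6pc, the last step of glucose release, was at 82.7 to 245.5 CPM in WT and 72.6 to 259.2 CPM in TET1 KO, with a log2 fold change of 0.11 (edgeR, adjusted p = 0.888). Pck1, a rate-controlling gluconeogenic enzyme, was also at 0.11 (edgeR, adjusted p = 0.829). Igfbp1, a secreted IGF binding protein repressed by insulin, was at -0.44 with an SE of 0.46 (edgeR, adjusted p = 0.561).

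Apoc3, an apolipoprotein that slows clearance of triglyceride-rich lipoproteins, was at 1566 to 2506 CPM in WT and 2700 to 4176 CPM in TET1 KO, without overlap. Its log2 fold change was 0.68 (edgeR, adjusted p = 0.132). Mttp, which loads lipid onto apolipoprotein B, went the other way at -0.38 (edgeR, adjusted p = 0.167) and was below WT in all 4 TET1 KO livers, at 158.7 to 189.9 against 196.6 to 289.3 CPM.

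Of 14 insulin-induced liver genes, 0 were called, against 2.02% of all tested genes, with 7 on each side of 0. At an unadjusted p under 0.05, 3 were higher and 1 lower, against 13.6% and 12.7%, and DESeq2 called 1 higher, Mlxipl, against 4.16%. Mlxipl, which encodes the glucose-responsive factor ChREBP, was at 272.3 to 471.3 CPM in WT and 492.8 to 872.3 CPM in TET1 KO, without overlap, and its log2 fold change was 0.90 (edgeR, adjusted p = 0.0793). Angptl8, a secreted regulator of lipoprotein lipase, was at 0.94 (edgeR, adjusted p = 0.164). Srebf1, the gene of SREBP-1c, was at 0.15 (edgeR, adjusted p = 0.716). Scd1, a fatty acid desaturase, was at -1.51 (SE 0.54, edgeR, adjusted p = 0.121), with WT livers at 2442 to 7469 and TET1 KO livers at 635.1 to 2616 CPM. The groups overlapped for Angptl8, Srebf1 and Scd1.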

How the data were processed

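Trimmomatic 0.36, GSNAP and featureCounts 1.5.3 on GRCm38 are named in the submitters' processing notes. The authors deposited 1 table of raw read counts per liver, not normalized. The labels describe dUTP stranded libraries, but the strand setting and annotation release of the counting are not given in the sources used here, so overlapping and antisense genes remain uncertain. The sample titles gave the groups and the replicate numbers. Of 51431 entries per library, 5 repeated identifiers were left out, and 24623 genes had a count.

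The genotypes were compared by the quasi-likelihood test of edgeR 4.0.16 in R 4.3.3 (filterByExpr, TMM, no covariates), with Benjamini-Hochberg adjustment over 14754 genes. These kept 99.88% or more of every library's counts. A gene was called at an adjusted p under 0.05. The biological coefficient of variation came to 0.208. The scripts were tested on simulated data. DESeq2 1.42.0, 2 other scalings, 2 other filters, robust dispersions, a replicate block and leaving out each liver were the alternatives. Ratios, with 0.5 added to each count, were tested by two-sided exact permutation over the 35 splits. The labels give no litter, batch or date. Each p-value sets the genotype difference against the spread between livers of a group. An effect of litter, batch or date could not be told apart from genotype. Libraries of a group differed beyond sampling noise (chi-square per degree of freedom at least 27.4). 

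Coordinates and promoter windows are from RefSeq (GRCm38.p6), and 9 of the 10 genes had a window. Exon lengths are from GENCODE M1 (NCBIM37) and were used as lengths only. The genes, the 8 pathway lists and the 9 marker lists were chosen with earlier results of these data known. Named pathway genes are those called, the 3 with the smallest p in each list, and Igfbp1, Pck1, G6pc and Srebf1, apart from genes by this rule that are not reported here. The cell type markers were named after their values were seen. Plots were made in Python 3.11 (matplotlib 3.10.9).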

Additional observations from a re-analysis of the deposited data

Results flagged for a closer look

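Among 45 items screened in the 4 TET1 KO livers (32 genes, 4 ratios and the summed levels of 9 marker lists), 5 had 1 liver far from the other 3, by the gap to its nearest neighbour divided by the range of the group. The flagged items lay at 0.843 or above and the others at 0.822 or below. Chance would give about 1 in 20 groups if values were normally distributed and items independent, but these items share livers and some genes. For Pik3r1 this value was 0.843, with TET1 KO replicate 4 the highest at 65.8 CPM and the others at 54.4 to 56.2 CPM. For Ptpn1 it was 0.848, with TET1 KO replicate 3 the lowest at 15.04 CPM and the others at 17.5 to 17.9 CPM. For Socs3 it was 0.860, with TET1 KO replicate 1 the highest at 37.1 CPM. The summed CPM of T and NK cell markers gave 0.895 and that of adipocyte markers 0.966, both with TET1 KO replicate 2 the highest, at 7.47 and 14.4 CPM. In TET1 KO replicate 2 the adipocyte sum held Adipoq at 4.23, Plin1 at 4.93 and Retn at 1.20 CPM. The sum was 13.9 and 25.9 CPM in WT replicates 1 and 2, where Cidec made up 13.9 and 24.7 CPM and Adipoq was at 0 and 0.373 CPM.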

How the results depend on the processing

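Of 140 values of the 10 genes' log2 fold changes under 14 alternatives, 122 kept their sign and their side of the threshold, 6 passed it only in the alternative, 6 no longer passed it and 6 changed sign. The number of the 10 genes called higher, 1 in the text, was 0 with library size only, 2 without a filter on low counts, with robust dispersions and with DESeq2, and 0 to 2 when single livers were left out. DESeq2 called 1 lower. Of the pathway genes, 0 were called higher with library size only, 2 without a filter and with robust dispersions, 4 with DESeq2, and 0 to 3 when single livers were left out, and DESeq2 called 4 lower. Over all genes, 245 were higher and 347 lower without a filter, 626 and 689 with DESeq2, and 16 to 427 and 22 to 464 when single livers were left out, and library size only gave 312 lower. It moved the median log2 fold change of all genes by -0.09. The cause of these changes was not tested.

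With the replicate number as a block, which also takes TET1 KO replicate 4 out of the comparison because no WT liver has its number, 670 genes were higher and 656 lower, 2 of the 10 genes (Irs2 and Igf1r) and 6 pathway genes were higher, 1 pathway gene was lower, and the log2 fold change of Irs1 was 0.040. The same-numbered livers had correlations of deviations of 0.209, -0.123 and -0.0964, and not every liver correlated best with its own number, so the numbers were not taken as pairing. Leaving out single livers gave Irs1 -0.10 to 0.12, Foxo1 -0.033 to 0.35 and the log2 ratio of Foxo1 to Foxo3 differences of -0.20 to 0.041. The other 3 ratios kept their sign, and none of the 4 passed in any alternative. With a liver left out or with the block, the design allows no p under 0.05. Using the longest transcript changed the rank by length of 4 genes in WT and over both genotypes and of 5 in TET1 KO. Extending exons to the RefSeq gene ends, an alternative chosen after seeing the data, changed 0 in WT and over both genotypes, and 2 in TET1 KO, Irs1 and Irs2. Depth limits Igf1r and Irs2 most, at 73 to 298 counts a liver. Summed levels with library size only were also an alternative chosen after seeing the data, and of the PI3K, FOXO-activated and cholangiocyte lists only the FOXO-activated one then overlapped.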
